A study of Mus musculus with 18 samples.

Results

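Actin cytoskeleton genes were examined in group 2 innate lymphoid cells (ILC2), which are lymphocytes without antigen receptors that release type 2 cytokines in tissues. The set held 10 genes taken by symbol from a list of names: Actb and Actg1, which encode the cytoplasmic beta and gamma actins, the thymosins Tmsb4x and Tmsb10, Cfl1 (cofilin), Pfn1 (profilin), the GTPases Cdc42 and Rac2, Coro1a (coronin) and Arpc2, a subunit of the Arp2/3 complex. All 10 were found among the 24781 gene entries of the count table, and all 10 were among the 1916 genes with enough counts to be tested. The study compared sorted ILC2 that lack CD45 with ILC2 that have it, in lung and in bone marrow. CD45, encoded by Ptprc, is a receptor tyrosine phosphatase of blood cells that acts on Src family kinases.

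There were 6 groups of 3 libraries. Lung ILC2, mature marrow ILC2 and immature marrow ILC2 (also labelled ILC2P) each came from CD45 KO x Rag2 KO mice, called CD45 KO here, and from Rag2 KO mice, called controls. All 6 groups therefore carry the Rag2 deletion, which removes T and B cells, and no group has an intact Rag2 gene. The labels give no age or sex, and they do not say whether the 3 libraries of a group came from separate animals, so p-values measure the spread between these libraries, which may be technical.

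Actin monomers assemble into filaments that carry the cell cortex and the protrusions of a migrating lymphocyte. Thymosins hold monomers in reserve, profilin delivers them to growing ends, cofilin severs old filaments, and the Arp2/3 complex starts branches when GTPases such as Cdc42 and Rac act through WASP and WAVE proteins. Actin genes are themselves classical targets of serum response factor (SRF), which binds a DNA element called the CArG box and works with cofactors that sense free actin monomers.

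Promoter sequence is shown for the 3 genes that passed the test in a comparison of CD45 KO with control. The sequences are upstream stretches of the RefSeq promoter windows, build GRCm38.p6, written 5′ to 3′ on the gene's strand. Capitals mark matches on either strand to the CArG box, to the GC box (GGGCGG or CCGCCC) and to the CCAAT box (CCAAT or ATTGG). Neighbouring GC box matches may overlap.
Actg1, chr11:120348543-120348745, minus strand: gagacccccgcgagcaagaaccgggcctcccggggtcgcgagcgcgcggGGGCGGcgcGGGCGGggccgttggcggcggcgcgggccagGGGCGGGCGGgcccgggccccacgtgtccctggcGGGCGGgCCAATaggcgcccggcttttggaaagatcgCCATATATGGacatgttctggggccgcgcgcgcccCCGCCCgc
Tmsb4x, chrX:167209316-167209468, minus strand: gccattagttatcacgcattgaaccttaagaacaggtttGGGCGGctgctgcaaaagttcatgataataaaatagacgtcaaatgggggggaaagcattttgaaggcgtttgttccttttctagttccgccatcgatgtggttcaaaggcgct
Cdc42, chr4:137357760-137358009, minus strand: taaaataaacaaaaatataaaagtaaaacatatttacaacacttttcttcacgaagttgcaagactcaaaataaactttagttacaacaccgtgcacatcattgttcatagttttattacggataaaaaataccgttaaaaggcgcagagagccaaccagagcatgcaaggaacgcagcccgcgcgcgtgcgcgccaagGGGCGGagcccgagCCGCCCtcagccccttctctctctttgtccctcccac
RefSeq windows were matched for 8 of the 10 genes, as 11 entries; Actb and Rac2 were not matched and not searched. Among the 8 genes searched, the CArG box was found in the Actg1 window alone, at position -90 from the RefSeq start, against 1.63% of 32851 entries over all genes. The GC box was in 11 of 11 entries, against 35.7% of all entries, and the CCAAT box was in those of Actg1 and Cfl1, against 37.4%. A match describes these letters and does not show that a factor binds there.

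Levels are normalised CPM, the counts of a gene relative to the library size, after library sizes were scaled by the trimmed mean of M-values (TMM). Library totals were 68077 to 122250 counts, with 7189 to 8793 genes detected, so that 1 count stood for between 8.42 and 14.9 CPM, and the 10 genes together made up between 1.40% and 2.42% of a library. Ptprc was lower in CD45 KO cells of all 3 populations, at 112 to 229 CPM in lung CD45 KO against 546 to 628 CPM in lung control libraries. It was 88.0 to 238 CPM in mature CD45 KO against 253 to 541 CPM in mature control libraries, and 42.0 to 138 CPM in immature CD45 KO against 342 to 464 CPM in immature control libraries. The library labelled mature CD45 KO replicate 1 had the highest of the CD45 KO values. All 10 ILC2 markers were detected in each group, and the smooth muscle markers Acta2, Myh11, Tagln and Cnn1 were at 0 in all 18 libraries. Neutrophil markers summed to 2384 CPM in mature control replicate 1 and to at most 167 CPM in the other 17 libraries. The macrophage and monocyte markers reached 167 CPM in lung CD45 KO replicate 1, with 4 of the 8 at 0 in all lung CD45 KO libraries and all 8 at 0 in the lung controls. Each of the other 11 lists of other cell types summed to at most 158 CPM.

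**Figure D1:**
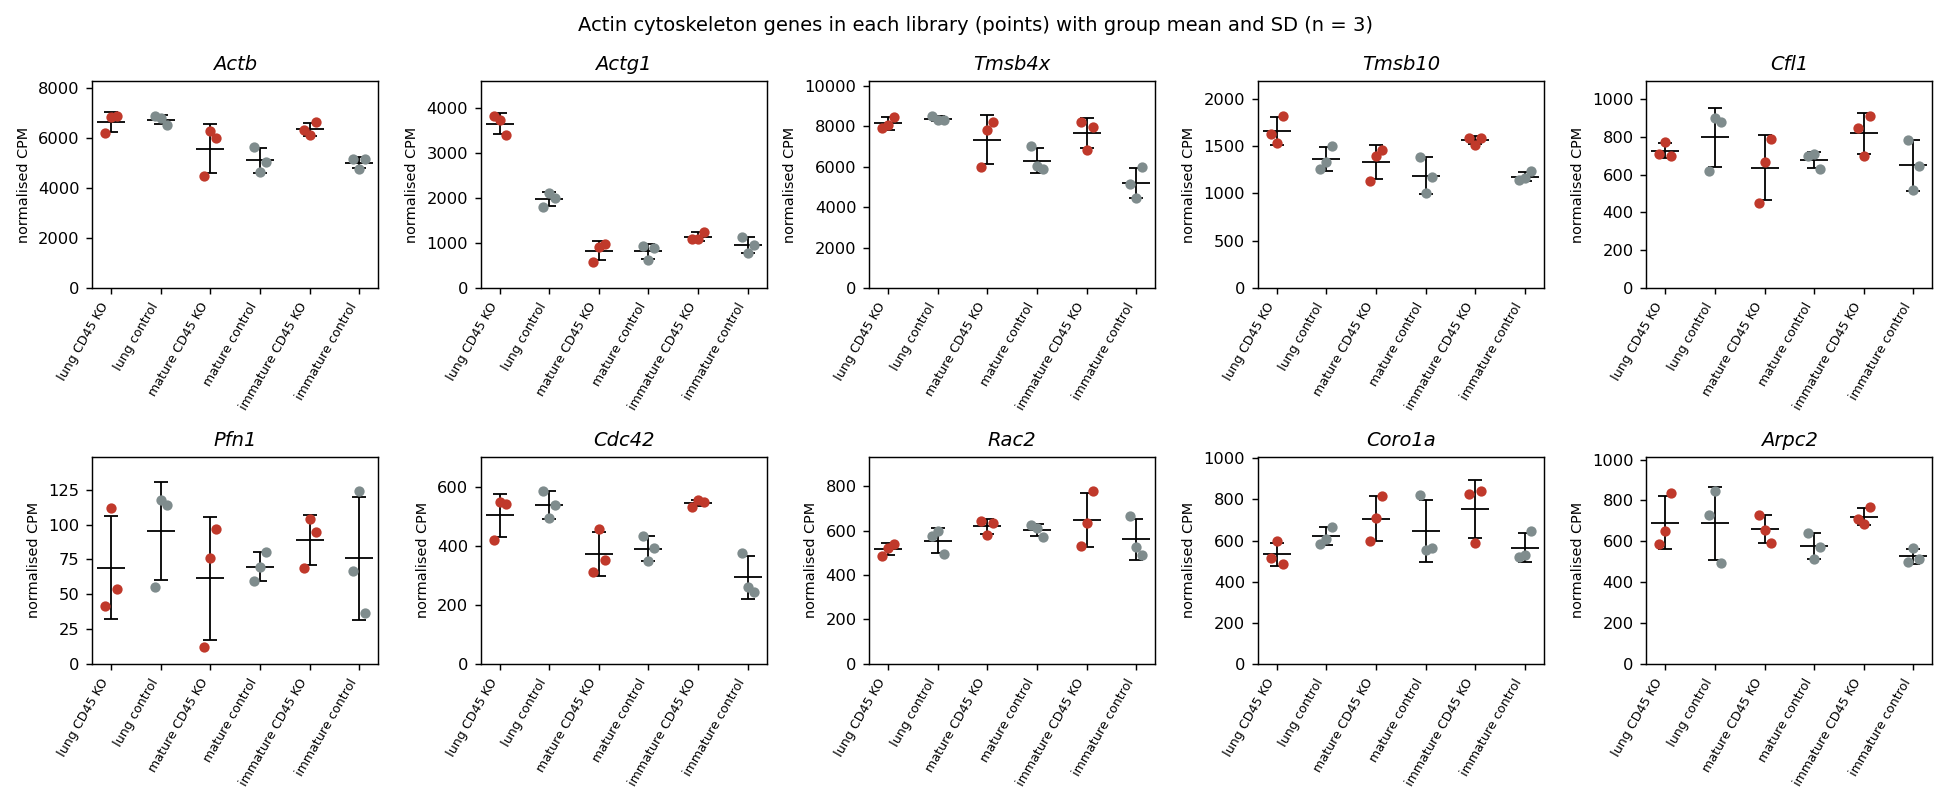
Normalised CPM (y axis, linear, from 0) of each of the 10 genes in every library, by group (x axis); points are libraries, horizontal bars are group means and error bars are SD (n = 3). The 3 lung CD45 KO libraries lie between 3400.2 and 3838 CPM for Actg1, above every other library, while Pfn1 values scatter within every group.

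The actins were read at high counts in every library. Actb lies at 5:142903115-142906754 on the minus strand (mm10, GENCODE M21) and Actg1 at 11:120345690-120348542, also on the minus strand. Actb was 6175, 6830.2 and 6868 CPM in lung CD45 KO libraries and 6889, 6771 and 6524 CPM in lung control libraries. In marrow it was 4456, 6250.1 and 6000.5 CPM in mature CD45 KO against 5633, 4636 and 5013 CPM in mature control, and 6299, 6101 and 6617 CPM in immature CD45 KO against 5141, 4745 and 5138 CPM in immature control. The lung groups overlapped, the mature groups overlapped, and all 3 immature CD45 KO values were above all 3 immature control values.

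Actg1 was highest in lung CD45 KO libraries. It was 3838, 3741 and 3400.2 CPM in lung CD45 KO libraries and 1808, 2118 and 1996 CPM in lung controls, against 584, 909.7 and 985 CPM in mature CD45 KO, 939, 625 and 892 CPM in mature control, 1084, 1082 and 1249.8 CPM in immature CD45 KO and 1128, 775 and 964 CPM in immature control libraries. Every lung CD45 KO value was above every lung control value, and every lung control value was above every marrow value. The genotypes overlapped within both marrow populations.

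In lung ILC2, loss of CD45 went with more Actg1 RNA, and 9 of the 10 genes did not pass the test. Actg1 averaged 3659.8 ± 230.1 CPM in lung CD45 KO and 1974 ± 156 CPM in lung control cells (SD, n = 3 each), a log2 fold change of 0.89 ± 0.13 (SE), or 1.85-fold, with a Benjamini-Hochberg adjusted p of 6.51e-07 in edgeR's quasi-likelihood test. Of all 1916 genes, 2.51% passed this comparison. Without lung CD45 KO replicate 1, the library with macrophage markers, the change was 0.88 with an adjusted p of 2.75e-05. In bulk libraries a change in the number of cells of a type and a change in RNA per cell cannot be told apart.

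Actb did not pass the test in lung. Its log2 fold change was -0.02 ± 0.12 (95% interval -0.25 to 0.21; adjusted p = 0.97), and its sign was positive at 0.011 with DESeq2 size factors. Actg1 made up 38.3%, 35.4% and 33.1% of the summed Actg1 and Actb counts in lung CD45 KO libraries, against 20.8%, 23.8% and 23.4% in lung controls. The means were 35.6% ± 2.62 in lung CD45 KO and 22.7% ± 1.65 in lung control cells (SD, n = 3 each), and the groups did not overlap. The two-sided exact permutation p was 0.1, the smallest that 3 against 3 libraries allow (0.175 adjusted over 14 such tests). In marrow the share was 12.8% ± 1.26 in mature CD45 KO against 13.8% ± 1.68 in mature control cells, and 15.2% ± 0.615 in immature CD45 KO against 15.9% ± 1.98 in immature control cells (exact permutation p = 0.4 and 0.7, n = 3 each). These are shares of counts and not of protein, and the counts are not per length.

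**Figure D2:**
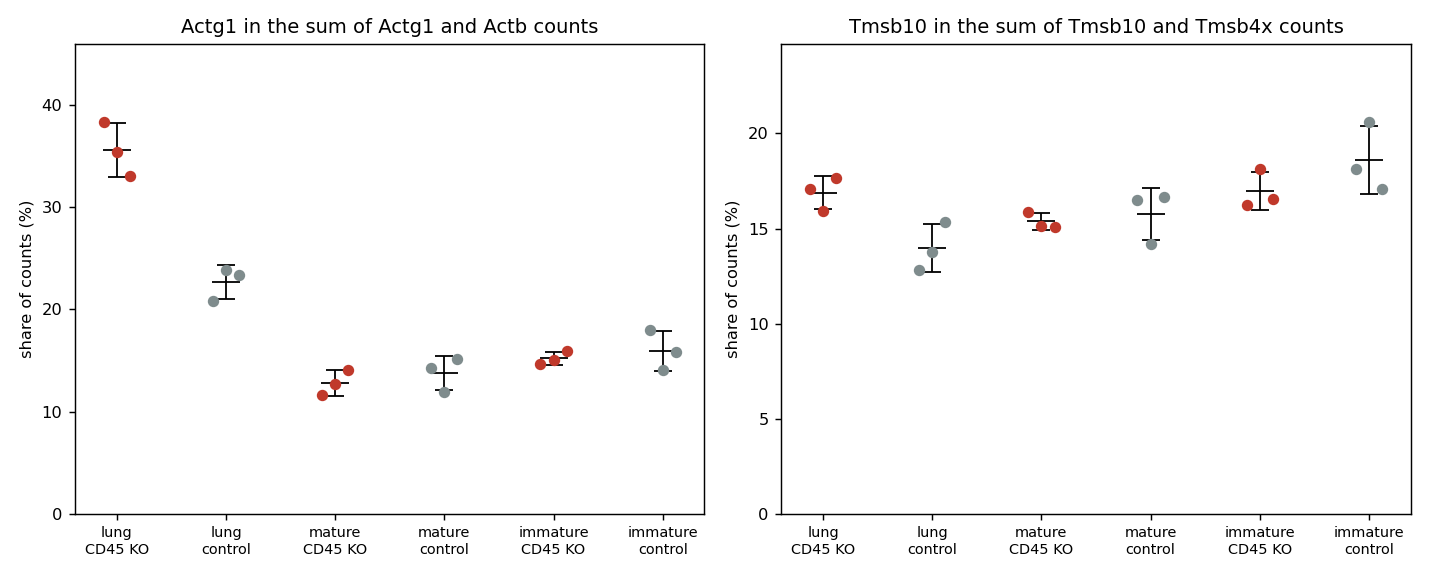
Share of counts (y axis, percent, from 0) of Actg1 in Actg1 plus Actb (left) and of Tmsb10 in Tmsb10 plus Tmsb4x (right), by group (x axis); points are libraries, horizontal bars are means and error bars are SD (n = 3). The Actg1 share is 33.1% to 38.3% in the lung CD45 KO libraries and 20.8% to 23.8% in the lung controls, and both lung groups lie above the marrow groups.

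The thymosins bind actin monomers. Tmsb4x (X:167207093-167209315, minus strand) was 7899, 8059 and 8487 CPM in lung CD45 KO against 8542, 8300.3 and 8309 CPM in lung control libraries. Tmsb10 (6:72957347-72958748, minus strand) was 1627, 1526 and 1822 CPM in lung CD45 KO against 1256, 1326 and 1504 CPM in lung control libraries. Tmsb4x overlapped between the lung genotypes, with a log2 fold change of -0.04 ± 0.12 (adjusted p = 0.959). Tmsb10 did not overlap, but its log2 fold change of 0.27 ± 0.14 did not pass the adjustment (adjusted p = 0.344). Actg1 and Tmsb10 were the 2 of 10 genes with all lung CD45 KO libraries above all lung controls, which 12.3% of all genes showed. The Tmsb10 share of summed thymosin counts was 16.9% ± 0.889 in lung CD45 KO and 14.0% ± 1.26 in lung control cells (exact permutation p = 0.1, n = 3 each). It was 15.4% in mature CD45 KO and 15.8% in mature control cells, and 16.97% in immature CD45 KO and 18.6% in immature control cells (exact permutation p = 0.8 and 0.2, n = 3 each).

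The other 6 genes, which act on filament turnover, signalling and branching, had log2 fold changes from -0.38 (Pfn1) to 0.02 (Arpc2) in lung, none past the threshold. For Cdc42 the 95% interval was -0.45 to 0.28, for Rac2 -0.46 to 0.27, for Coro1a -0.57 to 0.15 and for Cfl1 -0.47 to 0.21. Over the 10 genes 3 were positive and the median was -0.06, beside 0.01 over all genes tested. Pfn1 was counted 1 to 13 times a library, and its interval of -1.32 to 0.55 leaves a wide range.

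In immature marrow ILC2 all 10 genes were higher in CD45 KO than in control libraries by fold change, and 2 of them, Tmsb4x and Cdc42, passed the test. Of all genes tested, 1.1% passed as higher and 49.0% had a positive change. The median over the 10 was 0.37, with a range of 0.20 to 0.89, beside -0.01 over all genes. Control totals were below CD45 KO totals in this population, at 97559 to 117933 counts in immature CD45 KO and 84446 to 94758 in immature control libraries, and the part of depth in the result was not tested.

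Tmsb4x was 8201, 6845 and 7982 CPM in immature CD45 KO libraries, against 5141, 4466 and 5979.9 CPM in immature controls. All CD45 KO values were above all control values, and the log2 fold change was 0.56 ± 0.12, or 1.48-fold (adjusted p = 0.00298, edgeR's quasi-likelihood test). Cdc42, the GTPase that activates WASP, lies at 4:137319696-137357720 on the minus strand. It was 532, 554 and 546 CPM in immature CD45 KO against 376, 258 and 244 CPM in immature control libraries. The 3 CD45 KO values were close together and above each control, with a log2 fold change of 0.89 ± 0.20, or 1.85-fold (adjusted p = 0.00593). Both calls were lost without immature control replicate 2 (Tmsb4x 0.47, adjusted p = 0.106; Cdc42 0.80, adjusted p = 0.103), and that of Cdc42 also without immature control replicate 3 (0.78, adjusted p = 0.0578) and in the Wald test of DESeq2 (adjusted p = 0.0827).

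Actb, Tmsb10 and Arpc2 had immature CD45 KO libraries wholly above the controls too, which makes 5 of 10 genes, where 9.39% of all genes did so. Tmsb10 was 1587, 1514 and 1586 CPM in immature CD45 KO against 1139, 1158 and 1233 CPM in immature control libraries, a log2 fold change of 0.41 ± 0.14 (adjusted p = 0.13). Actb changed by 0.34 ± 0.12 (adjusted p = 0.151). Arpc2 (1:74236084-74268209, plus strand), a core subunit of the branching complex, was 709.7, 684 and 767 CPM in immature CD45 KO against 498, 569 and 513 CPM in immature controls, a change of 0.45 ± 0.18 (adjusted p = 0.236). None of these 3 passed after adjustment over all genes.

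Coro1a, Cfl1, Actg1, Pfn1 and Rac2 overlapped between the immature genotypes. Coro1a (7:126699773-126707787, minus strand), which binds filaments and Arp2/3, was 828, 588 and 840.2 CPM in immature CD45 KO against 519.6, 527 and 647 CPM in immature controls, with a log2 fold change of 0.41 ± 0.18 (adjusted p = 0.284). The low CD45 KO value of 588 CPM lies within the control range. Cfl1 (19:5490455-5495201, plus strand) was 848, 701 and 914 CPM in immature CD45 KO and 785, 517 and 647 CPM in immature control libraries, a change of 0.33 ± 0.17 (adjusted p = 0.422). The changes of Actg1, Pfn1 and Rac2 were 0.25, 0.20 and 0.20, with adjusted p of 0.534, 0.924 and 0.677.

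In mature marrow ILC2 no gene of the 10 passed between CD45 KO and control, and none had an unadjusted p below 0.05. Of all genes tested 0.261% passed and 173 had an unadjusted p below 0.05. Tmsb4x came nearest, at 5993, 7834 and 8226 CPM in mature CD45 KO and 7019, 6038 and 5875 CPM in mature controls, a log2 fold change of 0.23 ± 0.12 (adjusted p = 0.599). The groups overlapped for each of the 10 genes, while 12.8% of all genes had groups that did not. The 10 changes lay between -0.11 and 0.23, with 7 positive and a median of 0.09, beside 0.00 over all genes.

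Each mature group held a library that stood apart in some values, but not to the same degree over all tested genes. Counts of 2 libraries of a group were compared by chi-square per degree of freedom. Mature CD45 KO replicate 1 gave 3.61 and 3.84 against replicates 2 and 3 of its group. Mature control replicate 1 gave 1.28 and 1.34 against its own, and pairs without mature CD45 KO replicate 1 gave at most 1.80. Mature CD45 KO replicate 1, with the high Ptprc value, had the lowest CPM of its group for Actb, Actg1, Tmsb4x, Tmsb10, Cfl1, Pfn1, Cdc42 and Coro1a, and the 10 genes summed to 14904 CPM there. Mature control replicate 1, with the neutrophil markers, had the highest mature control value for Actb, Actg1, Tmsb4x, Tmsb10, Cdc42, Coro1a, Rac2 and Arpc2. S100a8, S100a9 and Ngp reached 1118, 998 and 253 CPM, while Ly6g was at 0 in every library. Camp, Mpo and Elane reached at most 27.8, 27.8 and 13.9 CPM in any library. Without mature CD45 KO replicate 1 the 10 changes were all positive, with a median of 0.24 and a range of 0.03 to 0.36, beside a median of 0.00 over all genes. Again 0 passed, 2 had an unadjusted p below 0.05 and 3 had CD45 KO libraries wholly above the controls (12.4% of all genes did), and 0.531% of all genes passed. Without both replicates 1, an alternative chosen after seeing the data, the median was 0.25 (range 0.05 to 0.46), 0 passed, 4 had an unadjusted p below 0.05 and 6 had CD45 KO libraries wholly above the controls (21.7% of all genes did). There 0.311% of all genes passed, and the median over all genes was 0.01. How many of all genes had an unadjusted p below 0.05 in either fit was not counted, so these counts have no background.

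**Figure D3:**
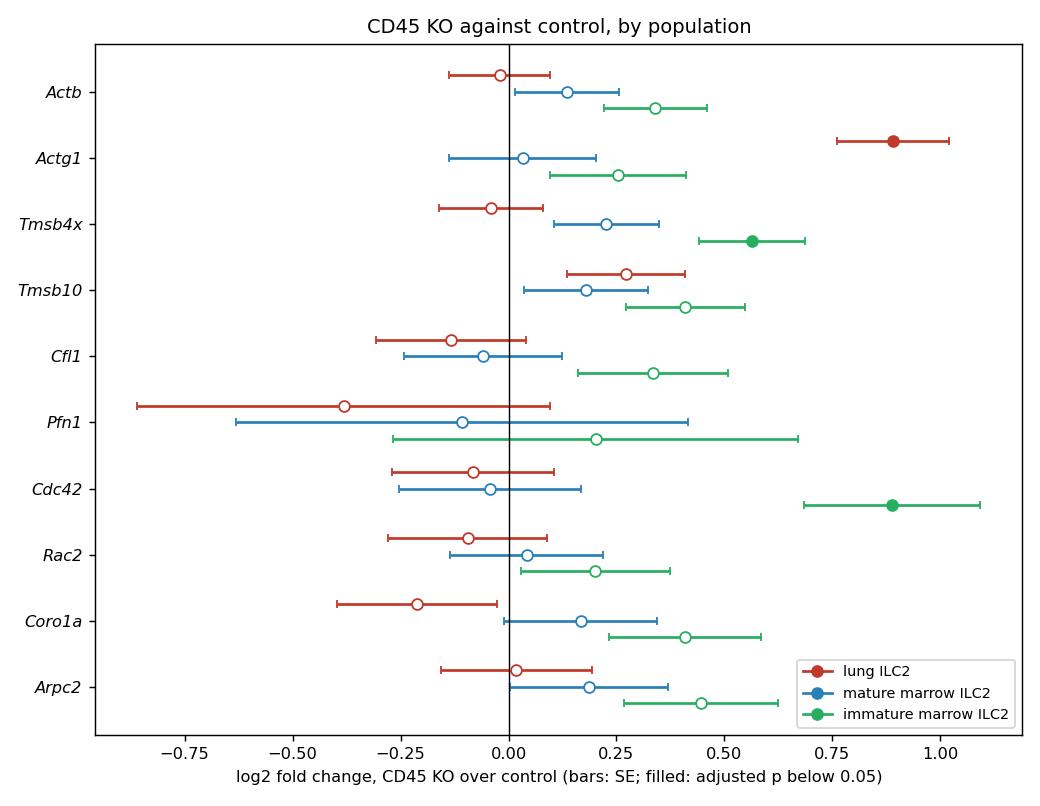
Log2 fold change of CD45 KO over control (x axis) for each of the 10 genes (y axis) in lung, mature and immature ILC2; points are estimates, bars are SE and filled points have an adjusted p below 0.05. Filled are Actg1 in lung at 0.89 and, in immature cells, Tmsb4x at 0.56 and Cdc42 at 0.89.

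Whether the CD45 effect itself differed between populations was tested as a difference of log2 fold changes. For Actg1 the lung effect exceeded the mature effect by 0.86 ± 0.21 (adjusted p = 0.0461; 0.313% of all genes passed). That p rose above 0.05 when any of 9 of the 12 libraries was left out, namely mature control replicates 1 and 3, mature CD45 KO replicate 1 and all 6 lung libraries, with adjusted p up to 0.153 and differences of 0.71 to 1.03 over all 12. Without both mature replicates 1 the difference was 0.62 (adjusted p = 0.292). Between lung and immature cells the Actg1 difference was 0.64 ± 0.20 (adjusted p = 0.121).

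The effects on Tmsb4x and Cdc42 in immature cells were not separated from those in the other populations at the threshold. The lung effect minus the immature effect was -0.61 ± 0.17 for Tmsb4x and -0.97 ± 0.28 for Cdc42, each with an adjusted p of 0.107, and the adjusted p of Tmsb4x was 0.0362 when only lung and immature libraries entered the fit. None of the 10 passed there, where 0.365% of all genes did. Of the 10, 5 had an unadjusted p below 0.05, as did 239 of all genes tested. The mature effect minus the immature effect was -0.93 ± 0.30 for Cdc42 (adjusted p = 0.761), and 0% of all genes passed, with 94 at an unadjusted p below 0.05.

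Between organs, Actg1 was the gene of the set that passed in each of the 4 comparisons. Among controls, lung exceeded mature marrow cells by 1.26 ± 0.16 (2.40-fold, adjusted p = 8.47e-11) and immature marrow cells by 1.05 ± 0.15 (2.07-fold, adjusted p = 8.46e-09). In CD45 KO libraries, lung exceeded mature cells by 2.12 ± 0.14 (4.35-fold, adjusted p = 2.35e-23) and immature cells by 1.69 ± 0.14 (3.22-fold, adjusted p = 7.86e-19). The comparisons share libraries, so they are given side by side and are not independent. Differences between organs also carry those of dissociation and sorting, and these cannot be told apart from organ.

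Among controls, 3 of the 10 genes were higher in lung than in mature marrow ILC2, where 15% of all genes were, and 4 were higher than in immature marrow ILC2, where 14.6% were. Besides Actg1, Actb exceeded the mature level by 0.40 ± 0.12 (adjusted p = 0.00696) and the immature level by 0.43 ± 0.12 (adjusted p = 0.00377). Tmsb4x exceeded the mature level by 0.41 ± 0.12 (adjusted p = 0.00656) and the immature level by 0.69 ± 0.12 (adjusted p = 2.85e-06). For these genes all 3 lung control values lay above all 3 values of either marrow control group. In all, 4 of the 10 genes lay wholly above the mature controls (20.5% of all genes did) and 5 above the immature controls (20.1% did). The calls against mature cells were lost for Actb without mature control replicate 2 (0.35, adjusted p = 0.0625) and for Tmsb4x without mature control replicate 3 (0.36, adjusted p = 0.0548).

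Cdc42 was 584, 492 and 536 CPM in lung controls, against 432, 347 and 391 CPM in mature and 376, 258 and 244 CPM in immature controls. Lung lay above both, with a log2 fold change of 0.87 ± 0.21 over immature cells (adjusted p = 0.000545) and 0.46 ± 0.20 over mature cells, which did not pass (adjusted p = 0.0783; 0.0471 with only lung and mature control libraries fitted). Arpc2 was 0.37 ± 0.18 over immature cells (adjusted p = 0.136), and it passed without lung control replicate 3 (0.59, adjusted p = 0.0195), whose value of 492 CPM was below the other two of its group. Among controls 0 of the 10 were lower in lung past the threshold, where 10.6% of all genes were lower than in mature and 10.9% than in immature cells. The medians over the 10 were 0.32 and 0.34 against mature and immature cells, beside -0.03 and -0.02 over all genes. With upper-quartile scaling the medians over all genes moved to -0.21 and -0.17, and the Actb and Tmsb4x calls against mature cells and the Actb call against immature cells were lost.

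Among CD45 KO cells 1 of the 10 genes passed between lung and mature cells and 2 between lung and immature cells. Against mature cells Actg1 passed alone (14.8% of all genes were higher and 9.55% lower), and Tmsb10, Cdc42 and Actb had changes of 0.30, 0.42 and 0.25 with adjusted p of 0.102, 0.116 and 0.13. Coro1a was 515, 595.6 and 486 CPM in lung CD45 KO against 595.7, 708 and 818 CPM in mature CD45 KO libraries, a change of -0.41 ± 0.18 (adjusted p = 0.0915). Its highest lung and lowest mature values were nearly equal. Rac2 also lay lower in all lung CD45 KO libraries, at -0.26 ± 0.18 (adjusted p = 0.339). Counting Coro1a, 2 of the 10 genes lay wholly lower in lung, where 16.4% of all genes did, and 2, Actg1 and Tmsb10, wholly higher, where 18.8% did. Coro1a passed as lower with upper-quartile scaling (-0.62, adjusted p = 0.00516) and without both mature replicates 1 (-0.48, adjusted p = 0.0452). Upper-quartile scaling moved the median over all genes in this comparison from -0.03 to -0.24, and the number of genes called from 466 to 584. Actb and Tmsb10 passed as higher without Rn45s and Rn4.5s (adjusted p = 0.0260 and 0.0405). Without mature CD45 KO replicate 2, Actb (0.37, adjusted p = 0.0404) and Cdc42 (0.63, adjusted p = 0.0364) passed as well. Against immature cells Actg1 was higher (15.7% of all genes were) and Coro1a fell (9.55% of all genes were lower). Its lung CD45 KO values overlapped the 828, 588 and 840.2 CPM of the immature CD45 KO libraries, with a log2 fold change of -0.47 ± 0.18 (adjusted p = 0.0415). That call was lost when any of the 3 lung CD45 KO libraries or immature CD45 KO replicates 1 or 3 was left out, with changes of -0.56 to -0.37. It was also lost with DESeq2 size factors, in the Wald test of DESeq2, with either other filter on low counts and without Rn45s and Rn4.5s (adjusted p of 0.0591 to 0.303). Tmsb4x and Cdc42 changed by 0.09 and -0.10 between lung and immature CD45 KO cells, with 95% intervals of -0.15 to 0.32 and -0.47 to 0.26.

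**Figure D4:**
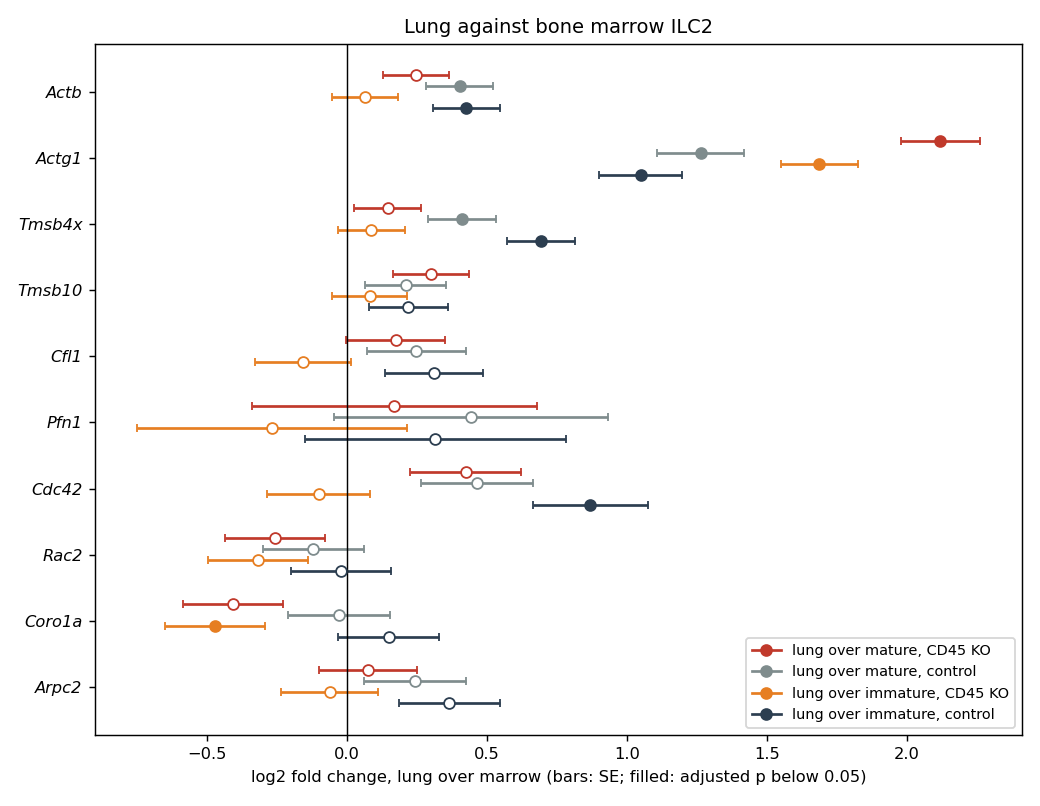
Log2 fold change of lung over marrow ILC2 (x axis) for each of the 10 genes (y axis), against mature or immature cells and within CD45 KO or control libraries; points are estimates, bars are SE and filled points have an adjusted p below 0.05. Actg1 is filled in all 4 comparisons, between 1.05 and 2.12, and Coro1a is the filled point below 0.

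Rac2 (15:78559167-78572783, minus strand), the haematopoietic Rac, passed in none of the 12 comparisons. With upper-quartile scaling, where the median over all genes was -0.24, Rac2 passed as lower in lung than in mature CD45 KO cells. It was 487, 521 and 539.7 CPM in lung CD45 KO and 573, 599 and 492 CPM in lung control libraries, 643, 581 and 633 CPM in mature CD45 KO and 626, 611 and 571 CPM in mature control libraries, and 532, 632 and 777 CPM in immature CD45 KO and 663, 527 and 488 CPM in immature control libraries. Each CD45 KO group overlapped its control group. Cfl1 was 709, 772 and 702 CPM in lung CD45 KO and 617, 898 and 879 CPM in lung control libraries, and 453, 665 and 792 CPM in mature CD45 KO and 700.4, 708 and 632 CPM in mature control libraries, and it also passed in no comparison. Pfn1 (11:70651850-70654644, minus strand) averaged 69.1 ± 37.4 CPM in lung CD45 KO and 95.7 ± 35.2 CPM in lung control cells (SD, n = 3 each).

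Between the marrow stages no gene of the 10 passed. Among controls 0.0522% of all genes did, and the 10 changes of mature over immature cells lay between -0.21 and 0.41. Tmsb4x alone of the 10 had an unadjusted p below 0.05, with a change of 0.28 ± 0.12 (adjusted p = 0.858), as did 103 of all genes tested. Of the 10, 0 had groups that did not overlap, where 10.2% of all genes did. Among CD45 KO cells 0.678% of all genes passed, and the 10 changes were all negative, between -0.53 and -0.06 with a median of -0.20. Over all genes 51.6% of the changes were positive and the median was 0.02. Actg1, Cdc42 and Tmsb10 had all mature CD45 KO libraries below all immature ones (5.9% of all genes did), at -0.43 ± 0.16, -0.53 ± 0.19 and -0.22 ± 0.13, with adjusted p of 0.288, 0.273 and 0.717. Mature CD45 KO replicate 1 is among these libraries.

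A list of 148 other actin genes, of which 146 were in the table and 74 were tested, was read beside the 10. In the CD45 comparisons 0 of the 74 passed in either direction in lung, mature or immature cells, and their medians were -0.00, 0.01 and 0.02. Between organs 8 of the 74 were higher and 0 lower in lung than in mature controls, where 15% of all genes were higher and 10.6% lower. Against immature controls 9 were higher and 1 lower, where 14.6% of all genes were higher and 10.9% lower. In CD45 KO libraries 9 were higher and 5 lower in lung than in mature cells (14.8% and 9.55% of all genes), and 8 were higher and 4 lower than in immature cells (15.7% and 9.55% of all genes). The share of the 74 called was below that of all genes in each of these counts. Between marrow stages 0 passed.

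Of the 13 tested genes for monomer binding, capping and turnover, 2 were higher in lung than in mature and 2 than in immature controls, where 15% and 14.6% of all genes were. Cotl1, a coactosin that binds filaments, averaged 874 ± 123 CPM in lung CD45 KO and 688 ± 106 CPM in lung control cells, against 208 ± 20.8 CPM in mature CD45 KO and 108 ± 74.6 CPM in mature control cells (SD, n = 3 each). The lung to mature change was 2.07 ± 0.21 among CD45 KO cells (adjusted p = 3.7e-14) and 2.75 ± 0.27 among controls (adjusted p = 8.39e-15), and against immature cells it was 1.99 and 1.93. Capg, which caps filament ends, had 61 counts over the lung controls against 2 over the mature and 1 over the immature controls, ratios of 24.5 (95% counting interval 6.49 to 206) and 55.1 (9.52 to 2212). Capg in lung CD45 KO cells exceeded the immature level by 2.41 ± 0.64 (adjusted p = 0.0019), while its change over mature CD45 KO cells was 1.26 ± 0.54 and did not pass (adjusted p = 0.0789).

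Of the 18 tested formins, crosslinkers and membrane linkers, 3 were higher in lung than in mature controls and 3 higher and 1 lower than in immature controls, beside 15% higher, 14.6% higher and 10.9% lower over all genes. Tagln2, a filament binding transgelin, averaged 1035 ± 159.5 CPM in lung CD45 KO and 958 ± 61.6 CPM in lung control cells, against 432 ± 39.3 CPM in mature CD45 KO and 385 ± 124 CPM in mature control cells. Its changes of lung over mature were 1.25 ± 0.17 among CD45 KO cells (adjusted p = 4.18e-09) and 1.33 ± 0.19 among controls (adjusted p = 7e-09), and over immature 0.97 and 1.06. The formin Diaph1 exceeded the mature control level by 1.02 ± 0.30 (adjusted p = 0.00667) and the immature control level by 0.97 ± 0.29 (adjusted p = 0.00744). These were lost without mature control replicate 3 (0.86, adjusted p = 0.0775) and without lung control replicate 3 (0.86, adjusted p = 0.0568). Tln1 (talin) at 0.67 over mature controls and Cnn2 (a calponin) at -0.72 against immature controls each lost the call without any of 4 of the 6 libraries. For Tln1 these were mature control replicates 1 and 2 and lung control replicates 2 and 3 (changes of 0.56 to 0.71), and for Cnn2 immature control replicates 1 and 2 and lung control replicates 1 and 3 (-0.69 to -0.53).
In CD45 KO cells Zyx (zyxin) was higher in lung than in mature cells by 1.08 ± 0.31 (adjusted p = 0.00423). Zyx averaged 226 CPM in lung CD45 KO, 102 CPM in mature CD45 KO and 134 CPM in immature CD45 KO cells. Among controls Zyx averaged 162 CPM in lung, 165 CPM in mature and 179 CPM in immature cells. Zyx did not pass between lung and immature CD45 KO cells, or in either comparison of lung with marrow controls. The crosslinker Lcp1 (L-plastin) fell by 0.56 on the log2 scale in lung CD45 KO against mature CD45 KO cells, and its change against immature CD45 KO cells was -0.53. The Lcp1 call against mature cells was lost without mature CD45 KO replicate 2 or 3 or lung CD45 KO replicate 1 or 3 (-0.52 to -0.39), and that against immature cells without any immature CD45 KO library or lung CD45 KO replicate 1 or 3 (-0.55 to -0.36). In the Wald test of DESeq2 the calls of Diaph1, Tln1, Cnn2 and Lcp1 did not pass (adjusted p of 0.0627 to 0.143). Diaph1, Tln1 and Cnn2 passed in neither comparison of lung with marrow CD45 KO cells. Tln1 averaged 260 ± 33.2 CPM in lung CD45 KO against 277 ± 34.0 CPM in mature CD45 KO cells. For Diaph1 these values were 166 ± 16.3 and 114 ± 7.50 CPM.

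Of the 7 tested myosin and tropomyosin genes, 2 were higher in lung than in mature controls and 1 than in immature controls, where 15% and 14.6% of all genes were. Among CD45 KO cells the counts were 2 and 1, where 14.8% and 15.7% of all genes were higher. The light chain Myl6 was higher in lung than in mature controls by 0.65 ± 0.18 (adjusted p = 0.00395) and than in immature controls by 0.70 ± 0.18 (adjusted p = 0.0014). Myl6 passed in neither comparison of lung with marrow CD45 KO cells. Myl12a exceeded the mature level by 0.70 among CD45 KO cells and 0.88 among controls. The CD45 KO call was lost without mature CD45 KO replicate 1 or 3 or lung CD45 KO replicate 2 or 3 (0.64 to 0.74), and the control call without mature control replicate 3 (0.73) or lung control replicate 1 (0.70). Neither passed in the Wald test of DESeq2 (adjusted p = 0.115 and 0.0590). Myh9, the non-muscle myosin heavy chain, averaged 520.0 ± 52.2 CPM in lung CD45 KO and 362 ± 58.4 CPM in lung control cells, against 244 ± 23.0 CPM in mature CD45 KO and 230.5 ± 49.7 CPM in immature CD45 KO cells (SD, n = 3 each). In CD45 KO libraries it exceeded the mature level by 1.08 ± 0.22 (adjusted p = 3.1e-05) and the immature level by 1.15 ± 0.22 (adjusted p = 1.28e-05). Marrow controls averaged 242 ± 35.7 CPM in mature and 283 ± 73.6 CPM in immature cells, and Myh9 passed in neither control comparison, with changes of lung of 0.59 over mature (adjusted p = 0.0629) and 0.36 over immature cells (adjusted p = 0.254).

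Branching and its regulators gave changes of both signs. Of the 6 other Arp2/3 subunits tested, Arpc3 was higher in lung than in immature controls by 1.18 ± 0.33 (adjusted p = 0.00452) and, among CD45 KO cells, than in mature ones by 1.08 ± 0.32 (adjusted p = 0.00548). That is 1 of 6 in each, where 14.6% and 14.8% of all genes were higher. Arpc3 did not pass over mature controls (0.68, adjusted p = 0.113) or over immature CD45 KO cells (0.70, adjusted p = 0.0774). Of the 6 tested WASP and WAVE family genes, Wipf1, which encodes the WASP partner WIP, was at 108 ± 37.8 CPM in lung CD45 KO, against 266 ± 25.4 CPM in mature CD45 KO and 284 ± 27.6 CPM in immature CD45 KO cells. Its changes were -1.36 ± 0.31 and -1.46 ± 0.31, with adjusted p of 0.000298 and 7.69e-05, where 9.55% of all genes were lower in each comparison. Among controls Wipf1 did not pass, with changes of -0.54 against mature and -0.39 against immature cells (adjusted p = 0.206 and 0.390). The difference of its CD45 effects did not pass between lung and mature or lung and immature cells (adjusted p = 0.510 and 0.274).

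Of the 6 genes listed for SRF and its cofactors, 4 were in the table and 1, Fhl2, was tested. Srf and the listed cofactor names Mkl1, Mkl2, Mrtfa and Mrtfb were not tested, so the Fhl2 values do not describe them. Fhl2 had 39 counts over the lung CD45 KO libraries against 3 over the mature and 1 over the immature CD45 KO libraries, ratios of 16.2 (95% counting interval 5.16 to 82.1) and 48.0 (8.13 to 1945). Among controls it had 26 counts in lung against 2 in mature and 2 in immature cells, ratios of 10.4 (2.61 to 90.6) and 11.7 (2.94 to 102).

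**Figure D5:**
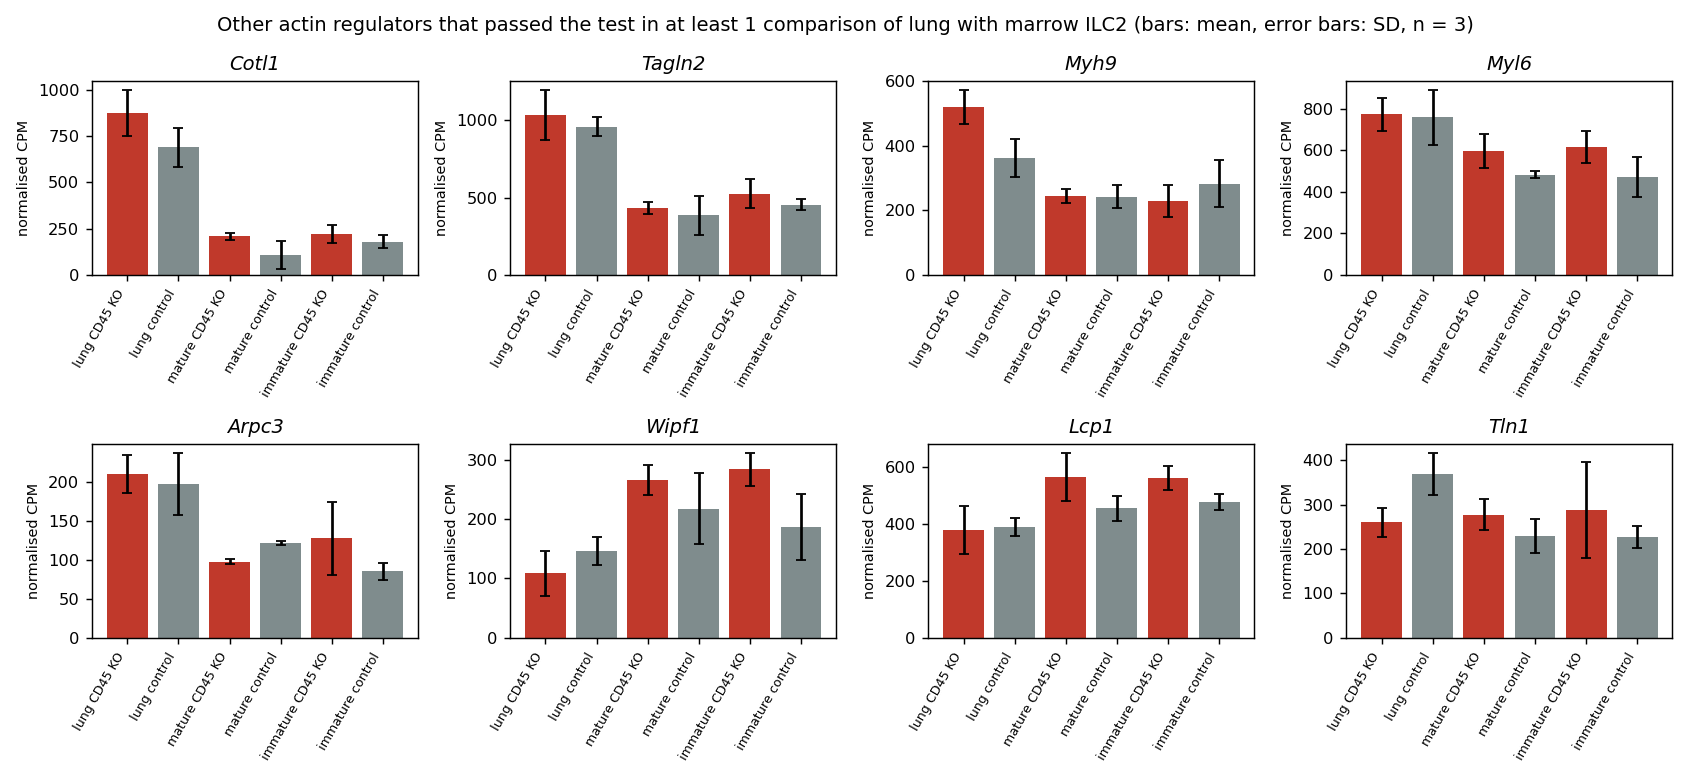
Normalised CPM (y axis, linear, from 0) of 8 other actin genes by group (x axis); bars are group means and error bars are SD (n = 3). Cotl1 averages 874 CPM in lung CD45 KO and 688 CPM in lung control cells, against 208 CPM in mature CD45 KO and 108 CPM in mature control cells, while Wipf1 is at 108 CPM in lung CD45 KO against 266 CPM in mature CD45 KO cells.

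Likeness to other genes was measured over the 6 group means of log2 CPM, each profile centred on its own mean, as the root mean square difference from 515 genes with a mean of at least 20 counts. Nearest to Actb were Oaz1 at 0.0768, Laptm5 at 0.0784 and Ppia at 0.0846, where the median over the 515 genes was 0.293. Nearest to Tmsb4x were Sh3bgrl3 at 0.0954, Hspa5 at 0.0988 and Myl6 at 0.104, with a median of 0.342. For Actg1, looked at after its values were seen, the nearest was Srgn at 0.0648, followed at a distance by P2ry10 at 0.229 and Prdx6 at 0.236, with a median of 0.817. The profiles share libraries, so these values describe the 6 groups.

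Counting could blur some of these genes. Coro1a overlaps Bola2 on the opposite strand, which had 167 counts over all libraries, and Cfl1 overlaps Snx32, which had 6; the labels and processing notes do not say whether strand was used in counting. The last 300 bases of Tmsb10 matched Gm9844 at 95% identity or more over at least 150 bases, and the other 9 genes had no such match.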

How the data were processed

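RNA was measured in 18 libraries of sorted ILC2, in 6 groups of 3 by population and genotype. Per the labels' protocols, lysates went into reverse transcription from an oligo-dT primer with a molecular barcode, followed by template switching and PCR. The labels speak of 200 sorted cells and of 100 cells in a tube. The submitters' processing notes name STAR and mm10. Not given in the sources used here are the counting tool, the annotation and any collapsing by barcode, so intervals on counts cover counting error only. The values deposited by the authors are unscaled whole-number counts per gene symbol. No spike-in entries are among them (0), and 26 entries with date names were left as they are.

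The edgeR package (4.0.16, R 4.3.3) fitted 6 group means after TMM scaling and filterByExpr (minimum count 10), which kept 1916 genes. The quasi-likelihood test was adjusted by Benjamini-Hochberg over these genes, with a threshold of 0.05. A standard error is the absolute log2 fold change over the square root of F, and 95% intervals are 1.96 of these either side. The procedure was tested on simulated data. The 10 genes, the other lists and the rule for naming genes (every member; in each other list and comparison, up to 3 passing genes with the largest changes) were chosen with earlier results of these data known. A further group of actin genes enters the counts over all other actin genes but is not reported on its own here. Alternatives used DESeq2 1.42.0 or other scalings, filters and library sets. Similar 3′ ends were sought with blastn 2.17.0 in GENCODE M21 transcripts.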

Additional observations from a re-analysis of the deposited data

Results flagged for a closer look

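In the main fit, the effect of CD45 loss on Actg1 differed between lung and mature marrow ILC2 by the test of the difference itself. That call was lost in 14 of 22 alternatives. The log2 fold change was 0.89 ± 0.13 in lung and 0.03 ± 0.17 in mature cells, a difference of 0.86 ± 0.21 (adjusted p = 0.0461, edgeR's quasi-likelihood test). In lung all 3 CD45 KO libraries were above all 3 controls, and in mature cells the genotypes overlapped. Over the alternatives the difference lay between 0.62 and 1.03, with adjusted p of 0.0145 to 0.452.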

How the results depend on the processing

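The Actg1 change in lung kept its direction and its call in all 15 alternatives, between 0.81 and 0.96. In immature cells 2 genes passed CD45 KO against control, 1 with the DESeq2 Wald test, and 0 to 2 with a library left out. For lung against mature controls 3 passed, 1 with upper-quartile scaling and 2 to 3 with a library left out, and against immature controls 4 to 5 with a library left out. For lung against mature CD45 KO cells 1 passed, 3 with upper-quartile scaling, 3 without Rn45s and Rn4.5s, 2 with at least 10 counts in 3 libraries, 2 without both mature replicates 1, and 1 to 3 with a library left out. Against immature CD45 KO cells 2 passed, and 1 with DESeq2 size factors, without Rn45s and Rn4.5s, with no filter, with at least 10 counts in 3 libraries and with the DESeq2 Wald test, and 1 to 2 with a library left out. For the difference of lung and mature CD45 effects 1 passed, and 0 with upper-quartile scaling, with no filter, with only the libraries compared, without both mature replicates 1 and with the Wald test, and 0 to 1 with a library left out. For lung and immature effects 0 passed, and 1 (Tmsb4x) without Rn45s and Rn4.5s and with only the libraries compared. The Actb change in lung reversed in sign at 0.011 with DESeq2 size factors and with the Wald test and at 0.016 with at least 10 counts in 3 libraries, and it lay between -0.040 and 0.049 with a library left out. From the main fit to upper-quartile scaling, the calls over all genes went from 491 to 562 for lung against mature controls. Those for lung against mature CD45 KO cells went from 466 to 584. Those for the difference of lung and mature effects went from 6 to 4. For the other alternatives in this paragraph the calls over all genes are not given. The cause of these moves was not tested.

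Samples with the same replicate number did not deviate together (correlation -0.0888 to 0.0755 over 45 pairs, -0.0820 to 0.122 for 90 pairs with other numbers). The tested genes had a median mean count of 12.6, where counting error can hide a shared deviation. Whether the numbers pair libraries of the same animal is therefore not settled. With a replicate block no count of genes moved, with 2 in immature cells, 1 in lung and 1 for the difference of lung and mature effects. Of the 10 genes Pfn1 had the lowest counts, and 3 counts stand for up to 44.7 CPM.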
